A study of Sus scrofa with 4 samples.

Results

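Undifferentiated vascular stem cells from pig subcutaneous fat were compared with those from pig longissimus dorsi, a muscle of the back. The comparison uses 2 of the 4 libraries of the series, 1 library from each origin, chosen by their labels as the 2 cultures that had not received adipogenic medium. Small RNAs of 16 to 35 nt were sequenced, and the study set out to compare the miRNAs of fat cell formation in both cell types. The fat-derived culture is called SVSC and the muscle-derived culture IVSC, as in the labels. Both were primary pig cells at passage 1, grown in DMEM/F12 medium with 20% serum in 6-well plates. SVSC were plated at 1000000 cells per well and IVSC at 1500000, so that origin and plating density cannot be told apart. Every sample carries the cell type tag of an adipose-derived vascular stem cell, the muscle samples included. The other 2 libraries come from the same origins after MDI, a medium with 0.5 mM IBMX, 0.25 µM dexamethasone and 5 mg/l insulin that induces fat cell formation. The sources used here do not state the age or number of the animals, whether both origins came from the same animal, or the state of confluence at harvest.

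A miRNA is cut from a hairpin precursor and guides the silencing complex to messenger RNAs that pair with its seed, which lowers their translation and stability. Some miRNAs mark a lineage: miR-1, miR-133 and miR-206 are made in muscle cells and their precursors, and miR-143 and miR-145 are abundant in smooth muscle and other mesenchymal cells. Mesenchymal progenitors in fat and muscle can become fat cells, and a set of miRNAs has been reported to promote or to inhibit that step.

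The SVSC library held 17937121 miRNA reads over 182 miRNAs and the IVSC library 13252168 over 187. Levels are given as CPM, reads scaled to 1000000 miRNA reads of the library, on which the 3 reads that a count of 0 allows correspond to 0.167 CPM in SVSC and 0.226 in IVSC. A miRNA is called higher or lower in SVSC when its ratio to IVSC is at least 2-fold and the exact 95% counting interval of that ratio, printed in parentheses, excludes 1. Only miRNAs with at least 10 CPM in 1 of the 2 libraries were compared. With 1 library per origin there is no spread between replicates and no p-value, and every ratio compares 2 libraries, with any difference between animals or preparations included. Nor can fewer cells of a type and less RNA per cell be told apart.

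Both cultures had the same leading miRNAs. Scaled to miRNA reads, more miRNAs were lower than higher in SVSC, a balance that moved with the scaling. miR-21, abundant in many growing cells, had 440817 CPM in SVSC and 295831 in IVSC. miR-143 had 255706 and 349986 CPM, and miR-378, which is cut from an intron of the gene for PGC-1β, a coactivator of energy metabolism, had 65477 and 130668. None of the 3 was called, although miR-378 lay just short of 2-fold lower, at a ratio of 0.501. Of the miR-143 reads, 99.93% in SVSC and 99.96% in IVSC lay outside the annotated mature miRNA, which held 3348 and 2045 reads. Here and below, reads outside the mature miRNA may include those of the hairpin's opposite arm, which was counted separately for few miRNAs. The 10 most abundant miRNAs took 90.4% of the miRNA reads in SVSC and 89.5% in IVSC, and 7 of the 10 were the same. miR-30d, miR-100 and miR-103 were among the 10 only in SVSC, and miR-23a, miR-152 and miR-27a only in IVSC.

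Of 148 miRNAs compared, 11 were higher in SVSC (7.43%) and 31 were lower (20.9%), and the median log2 ratio over all 148 was -0.25. At least 4-fold differences were seen for 1 miRNA higher (0.676%) and 16 lower (10.8%). Of the 31 lower miRNAs, 12 reached the minimum level through IVSC only and so could not have been called higher. The balance of higher and lower calls depends on the scaling. TMM and DESeq2 size factors each moved the log2 ratios by 0.35 and gave 23 higher and 27 lower, and leaving miR-21 out of the totals moved them by 0.33 and gave 24 and 30. Scaling to all reads moved them by 0.18 and gave 14 higher and 28 lower, and leaving out miR-143 moved them by -0.20 and gave 9 and 46. Under all 6 scalings 9 of the 11 higher and 27 of the 31 lower calls held. On mature reads alone 7 of 130 miRNAs were higher (5.38%) and 36 lower (27.7%), and 7 of the 11 and 22 of the 31 were among them. Counting mature reads alone also takes nearly all miR-143 reads out of the totals. The calls not held under every scaling were miR-30d and miR-107 on the higher side and miR-342, miR-92a, miR-221 and miR-484 on the lower side.

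**Figure D1:**
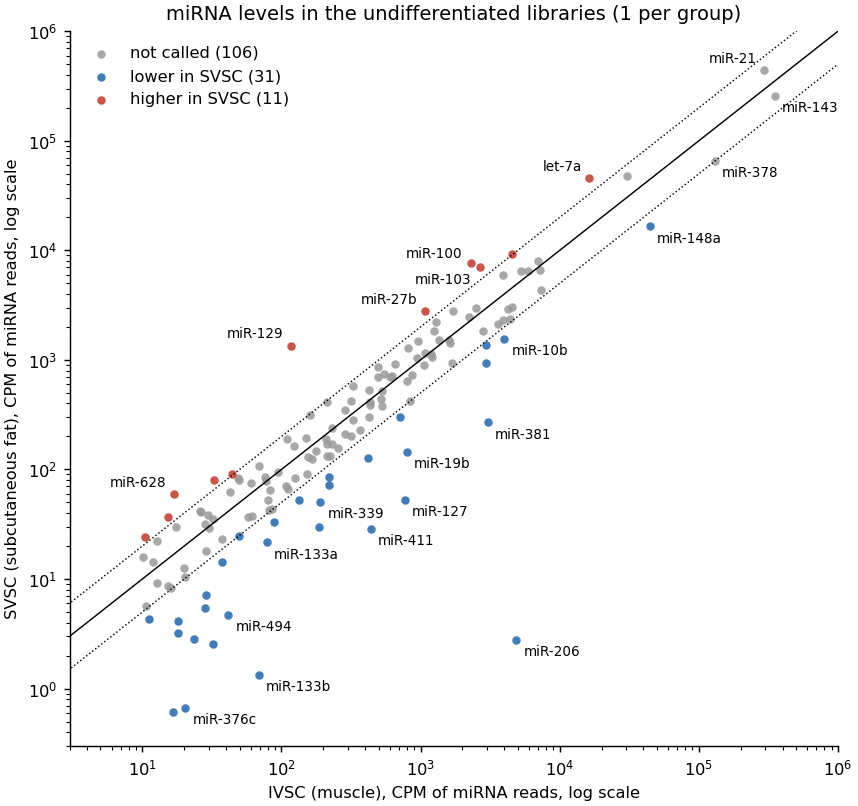
Each point is a miRNA, placed by its CPM in the IVSC library (x axis, log scale) and the SVSC library (y axis, log scale), 1 library each. The solid line marks equal levels and the dotted lines 2-fold differences. In SVSC 31 miRNAs (blue) were lower and 11 (red) higher, with miR-206 farthest below the line and miR-129 farthest above it.

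The widest group difference was in the miRNAs of the DLK1-DIO3 locus, an imprinted region whose miRNAs and small nucleolar RNAs are made from the maternal chromosome together with the long non-coding RNA MEG3. In the Sscrofa11.1 gene table MIR493, MIR127, MIR432 and MIR136 neighbour DLK1, MEG3 and RTL1. Of 39 miRNAs listed for the locus, 15 had reads and 10 reached the minimum level. Each of the 10 was lower in SVSC, where 20.9% of all miRNAs were. Their median log2 ratio was -3.58 beside -0.25 over all miRNAs. All 10 were lower under each of the 6 scalings, though 6 of them reached the minimum through IVSC only and so could only have been called lower. The 4 members at the minimum in both libraries, miR-127, miR-299, miR-381 and miR-411, had a median log2 ratio of -3.68, beside -0.13 over the 132 miRNAs at the minimum in both. These 4 were all lower, where 14.4% of the 132 were. Reads outside the mature miRNA weigh on several members. Counted by mature reads alone, miR-381, miR-376b, miR-376c and miR-494 lay below the minimum, miR-411 had 36 reads in SVSC and 363 in IVSC, and miR-299 had 22 and 150. Together the 15 detected miRNAs held 397 CPM in SVSC and 4627 in IVSC, a ratio of 0.0858.

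miR-381 was the most abundant of them, with 4816 reads (268 CPM) in SVSC and 40431 (3051 CPM) in IVSC, 11.4-fold lower (11.0 to 11.7). Nearly all of its reads lay on the rest of the hairpin, outside the annotated mature miRNA, which held 0 and 11 reads. miR-127, which lies opposite the paternally expressed gene RTL1 and can guide the cutting of its transcript, had 951 reads (53.0 CPM) and 10220 (771 CPM), 14.6-fold lower (13.6 to 15.6). miR-411 had 518 and 5795 reads, 15.1-fold lower (13.8 to 16.6). For all 3, the IVSC level was more than 10-fold that of SVSC. miR-299 had 531 and 2480 reads, 6.32-fold lower (5.75 to 6.96).

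The rarer members showed the same direction on few SVSC reads. miR-376c had 12 reads in SVSC and 269 in IVSC, miR-376b 11 and 219, and miR-136 46 and 430. miR-494 had 85 and 549 reads, miR-369 51 and 314, and miR-382 58 and 238. Their log2 ratios ran from -4.92 for miR-376c to -2.47 for miR-382. A further 5 members stayed below the minimum level and were not compared: miR-323 had 0 reads in SVSC and 77 in IVSC, miR-376a 6 and 55, miR-432 22 and 48, miR-487b 10 and 91, and miR-758 6 and 98.

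Small RNA families of this locus outside the pig hairpin list were also looked at, and were chosen after their values were seen. Reads of the miRNA families among them may be those of the pig hairpins above, so they cannot be taken as separate reads. SNORD113, a family of C/D box small nucleolar RNAs of the locus, had 69 reads in SVSC and 681 in IVSC, or 2.68 and 31.5 RPM (reads scaled to 1000000 reads of all kinds), 11.8-fold lower (9.17 to 15.3). The Rfam family mir-154, which groups many miRNAs of the locus, had 457 and 2715 reads, 7.08-fold lower (6.41 to 7.83). mir-412 had 3 and 32 reads, a ratio of 0.0787 (0.0154 to 0.252). mir-544 had 39 and 30 reads, a ratio of 1.09 (0.661 to 1.82), and was the only one of these families without a lower RPM in SVSC.

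**Figure D2:**
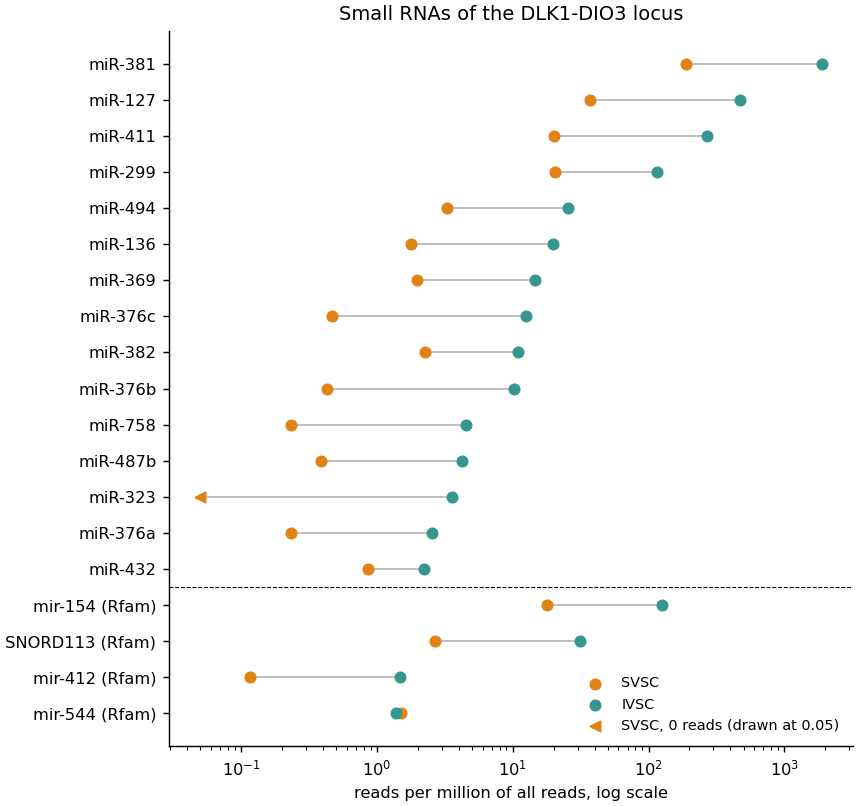
RPM, reads scaled to 1000000 reads of all kinds (x axis, log scale), of the 15 detected DLK1-DIO3 miRNAs and, below the dashed line, 4 Rfam families of the locus, in SVSC (orange) and IVSC (green), 1 library each. All 15 miRNAs lie further left in SVSC, miR-323 with 0 reads there (arrow), while mir-544 does not.

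The skeletal muscle miRNAs differed among themselves. miR-206, made in skeletal muscle and activated muscle precursors, had 50 reads (2.79 CPM) in SVSC and 64588 (4874 CPM) in IVSC, 1748-fold lower (1326 to 2356). miR-133b, encoded beside miR-206, had 24 and 912 reads, 51.4-fold lower (34.4 to 80.7). miR-133a had 388 and 1036 reads, 3.61-fold lower (3.21 to 4.07). On the mature miR-133a only 18 and 11 reads were found, at a log2 ratio of 0.06, too few to compare.

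The other skeletal muscle miRNAs were not called. miR-1, encoded beside miR-133a and shared by skeletal and heart muscle, had 32606 reads (1818 CPM) in SVSC and 16453 (1242 CPM) in IVSC, a log2 ratio of 0.55. The Rfam family mir-1, counted apart from the pig hairpins, had 31116 and 11928 reads and was higher in SVSC on the scale of all reads, 2.19-fold (2.14 to 2.24). On that scale the pig hairpin of miR-1 had a log2 ratio of 0.73. miR-499, encoded in a myosin gene, had 165 and 169 reads and a log2 ratio of -0.47, and miR-208b had no read. So 3 of the 5 miRNAs compared were lower in SVSC, where 20.9% of all miRNAs were. miR-206, miR-133b and miR-499 reached the minimum through IVSC only, so these 3 could not have been called higher. The median log2 ratio of the 5 was -1.85 beside -0.25 over all miRNAs, and their summed level was 1853 CPM in SVSC and 6275 in IVSC. That median is the value of miR-133a, which rests mostly on reads outside its mature miRNA. On mature reads alone 2 of the list were lower, where 27.7% of all miRNAs were. The muscle list includes the miRNA with the lowest ratio of all, while its most abundant SVSC member, miR-1, had more CPM in SVSC under all 6 scalings.

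Markers of perivascular and smooth muscle cells were abundant in both libraries, and their levels differed by less than 2-fold. miR-143, miR-145, miR-199a, miR-199b and miR-214 had log2 ratios of -0.76 to -0.23, and none of the 5 was called. The level of miR-143 rests almost wholly on reads outside its mature miRNA. miR-145 had 895 CPM in SVSC and 1058 in IVSC, and miR-214 had 443 and 519. For other cell types the levels were low and differed. The endothelial miR-126 had 944 reads (52.6 CPM) in SVSC and 1777 (134 CPM) in IVSC, 2.55-fold lower (2.35 to 2.76). The blood cell miRNA miR-142 had 97 and 376 reads, 5.25-fold lower (4.19 to 6.63), but only 3 and 35 of them on the mature miRNA.

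Other blood cell markers gave few reads: miR-451, of red blood cells, had 46 reads in SVSC and 86 in IVSC, miR-486 had 51 and 67, and miR-144, miR-150 and miR-223 had none. The summed blood cell list stood at 10.8 CPM in SVSC and 39.9 in IVSC. miR-122, a liver miRNA, was higher in SVSC at 432 and 139 reads, of which 20 and 17 lay on the mature miRNA. Of 7 epithelial miRNAs only miR-205 was seen among the pig hairpins, with 7 and 2 reads. The Rfam family of another, mir-203, had more reads and was higher in SVSC, as given below. The part of muscle, endothelial or blood cells in the other differences was not tested.

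The miRNA that most exceeded its IVSC level was miR-129, a miRNA best known from neurons. It had 24217 reads (1350 CPM) in SVSC and 1543 (116 CPM) in IVSC, 11.6-fold higher (11.0 to 12.2). Of these reads 91.6% in SVSC and 73.8% in IVSC lay on the rest of the hairpin. The mature miRNA held 2037 and 404 reads and was higher too, at a log2 ratio of 1.68. miR-9, the only other neuronal marker with reads, had 398 and 168 reads and a log2 ratio of 0.81, and miR-124 and miR-219 had none. With TMM, with DESeq2 size factors and without miR-21, miR-9 was called higher too.

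miRNAs reported to promote fat cell formation went both ways. Of 18 compared, 4 were higher in SVSC and 4 were lower, where 7.43% and 20.9% of all miRNAs were. Without miR-143 in the totals the counts were 2 and 5, and the median log2 ratio of -0.16, beside -0.25 over all miRNAs, changed sign between scalings (-0.35 to 0.19). The higher ones were miR-103 and miR-107, which target caveolin in the insulin response, miR-30d, and miR-210, the miRNA of the hypoxia response. miR-103 had 125211 reads (6981 CPM) in SVSC and 35634 (2689 CPM) in IVSC, 2.60-fold higher (2.57 to 2.63). miR-107, which differs little from miR-103 in sequence, had 1632 and 586 reads, 2.06-fold higher (1.87 to 2.26). Reads of such close relatives can be split between them by the counting. miR-210 had 660 and 202 reads, 2.41-fold higher (2.06 to 2.84).

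The 4 lower ones were miR-148a, miR-30a, miR-146b and miR-92a. miR-148a had 296789 reads (16546 CPM) in SVSC and 589668 (44496 CPM) in IVSC, 2.69-fold lower (2.68 to 2.70), the highest level of any called miRNA in IVSC. Its relatives miR-148b and miR-152 had log2 ratios of -0.76 and -0.13. miR-146b had 597 and 1174 reads, 2.66-fold lower (2.41 to 2.94), and miR-92a 5356 and 9372 reads, 2.37-fold lower (2.29 to 2.45).

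Scaled to miRNA reads, the miR-30 family split within itself, with the most abundant member in SVSC higher and another lower. miR-30d had 166162 reads (9264 CPM) in SVSC and 60563 (4570 CPM) in IVSC, 2.03-fold higher (2.01 to 2.05), and miR-30a had 16749 (934 CPM) and 39403 (2973 CPM), 3.18-fold lower (3.13 to 3.24). miR-30b, encoded beside miR-30d, had a log2 ratio of -0.49, miR-30c one of -0.44 and miR-30e one of 0.18. The median of the 5 was -0.44. The higher call of miR-30d was lost without miR-143 in the totals and on mature reads, at log2 ratios of 0.82 and 0.81.

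Among miRNAs reported to inhibit fat cell formation, 2 of 14 were higher in SVSC and 1 was lower, beside the same 7.43% and 20.9%. The lower call was lost under scaling to all reads, with TMM, with DESeq2 size factors and without miR-21. Under the last 3 of these, 3 miRNAs were higher, let-7c being the added one. The median log2 ratio of 0.03 changed sign between scalings (-0.17 to 0.38). miR-27b, which represses the fat cell regulator PPARγ, had 49731 reads (2773 CPM) in SVSC and 14237 (1074 CPM) in IVSC, 2.58-fold higher (2.53 to 2.63). Its paralog miR-27a had 6420 and 5926 CPM and a log2 ratio of 0.12. miR-221, a repressor of cell cycle inhibitors, had 24440 and 39162 reads, 2.17-fold lower (2.13 to 2.20), but its log2 ratio was -0.60 on the 8950 and 8639 reads of the mature miRNA. Its partner miR-222 had a log2 ratio of -0.69. miR-130a and miR-130b, repressors of PPARγ, had log2 ratios of -0.16 and -0.25.

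Of 6 brown fat miRNAs compared, miR-133a and miR-133b were lower in SVSC as described above, where 20.9% of all miRNAs were. The other 4, miR-193a, miR-365, miR-455 and miR-155, had log2 ratios of -0.70 to -0.03 and were not called. miR-196a, which marks posterior body positions and promotes brown-like fat, had 147 reads in SVSC and 51 in IVSC and stayed below the minimum level.

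**Figure D3:**
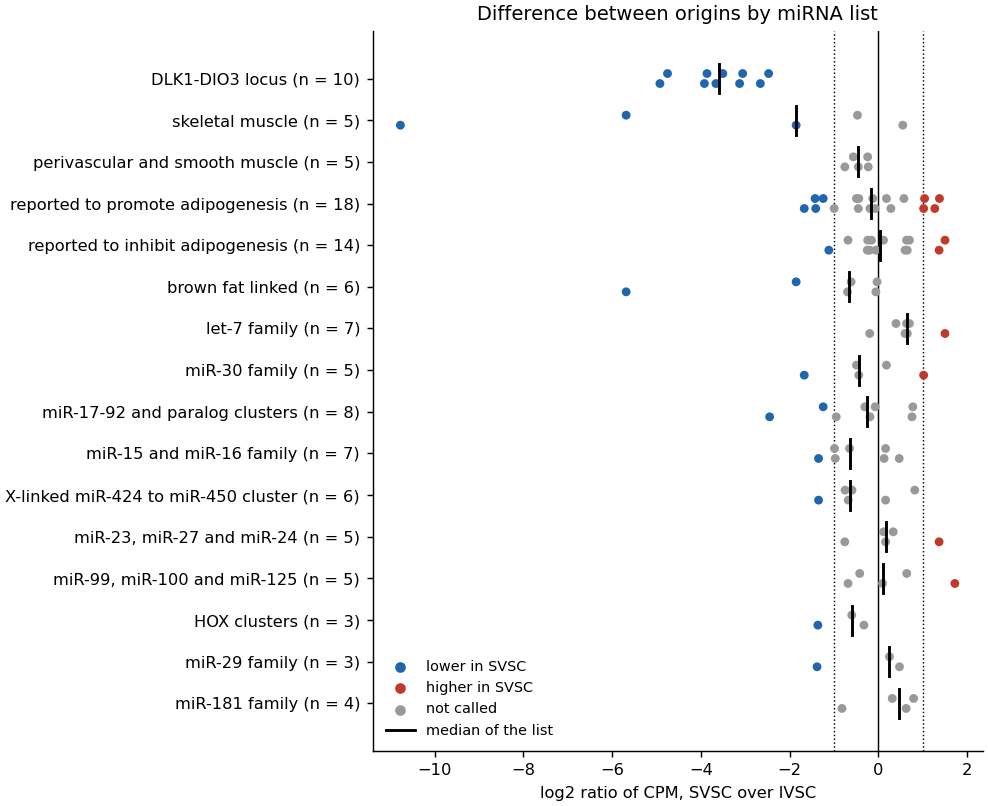
log2 ratio of CPM, SVSC over IVSC (x axis), of the miRNAs compared in each of 16 lists (rows, with the number compared), 1 library per origin. Black bars are medians and dotted lines 2-fold; the DLK1-DIO3 list lies wholly below -2, while the lists tied to fat cell formation spread to both sides.

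The let-7 family, which represses growth and stem cell genes, lay above the median of all miRNAs, but a single member was called on the scale of miRNA reads. With TMM, with DESeq2 size factors and without miR-21, 2 members were higher, let-7a and let-7c. let-7a had 822351 reads (45846 CPM) in SVSC and 214654 (16198 CPM) in IVSC, 2.83-fold higher (2.82 to 2.84). let-7f, the most abundant member in both libraries, had 47915 and 30511 CPM and a log2 ratio of 0.65. let-7c, let-7e, let-7g and miR-98 had log2 ratios of 0.40 to 0.70, and let-7i one of -0.20. The family median of 0.64 stayed positive under all 6 scalings (0.44 to 0.98). The members differ by few bases, so their reads can be split between them by the counting.

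miR-100, of a family that represses the growth kinase mTOR, had 136207 reads (7594 CPM) in SVSC and 30477 (2300 CPM) in IVSC, 3.30-fold higher (3.26 to 3.34). Its near relatives miR-99a and miR-99b had log2 ratios of -0.68 and 0.64, and miR-125a and miR-125b had -0.42 and 0.09. Higher calls at lower levels were those of miR-628, with 1069 and 223 reads, 3.54-fold (3.06 to 4.11), and miR-421, with 1443 and 436 reads, 2.45-fold (2.20 to 2.73). Of the miR-421 reads only 9 and 0 lay on the mature miRNA.

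Of miRNAs tied to cell division, the miR-17-92 cluster and its paralogs had 2 of 8 lower in SVSC and none higher, beside 20.9% and 7.43% of all miRNAs. With TMM, DESeq2 size factors or miR-21 left out, 1 was lower and 2 were higher, miR-106a and miR-363, and the median log2 ratio of -0.25 changed sign between scalings (-0.44 to 0.10). miR-19b had 2599 reads (145 CPM) in SVSC and 10499 (792 CPM) in IVSC, 5.47-fold lower (5.24 to 5.71). The reads of miR-19b are counted over its hairpin copies together. miR-17 and miR-20a of the miR-17-92 cluster had log2 ratios of -0.19 and -0.07, and miR-18a and miR-19a had -0.31 and -0.95. miR-106a and miR-363, of the paralog cluster on the X chromosome, had log2 ratios of 0.76 and 0.78.

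Of 7 relatives of miR-15 and miR-16 compared, 1 was lower, where 20.9% of all miRNAs were. It was miR-503, with 1541 and 2900 reads, 2.55-fold (2.39 to 2.71). Without miR-143 in the totals, 3 of the 7 were lower. miR-424, encoded beside miR-503 and sharing targets in the cell cycle, had a log2 ratio of 0.16. miR-15b and miR-16, also neighbours, had log2 ratios of -0.99 and 0.13. However, miR-16 is counted over its hairpin copies together, which need not share the transcript of miR-15b. The rest of the X-linked cluster, miR-542 and miR-450a to miR-450c, had log2 ratios of -0.75 to 0.82 and was not called on this scale. miR-450b, the highest of them, passed 2-fold under scaling to all reads, with TMM, with DESeq2 size factors and without miR-21.

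A few further lower miRNAs stood at 100 CPM or more in IVSC. miR-10b, a miRNA of a HOX cluster, had 27732 reads (1546 CPM) in SVSC and 52743 (3980 CPM) in IVSC, 2.57-fold lower (2.54 to 2.61), while miR-10a of another HOX cluster had a log2 ratio of -0.33. miR-339 had 906 and 2511 reads, 3.75-fold lower (3.48 to 4.05), miR-32, which shares its seed with miR-92a, 2287 and 5588 reads, 3.31-fold (3.15 to 3.47), and miR-708 1285 and 2902 reads, 3.06-fold (2.86 to 3.27). In the miR-29 family, which represses collagen genes, miR-29c was lower, with 256 and 493 reads, while miR-29a and miR-29b had log2 ratios of 0.25 and 0.48. No member of the miR-34 family (log2 ratios of 0.36 and 0.97) or the miR-181 family (-0.82 to 0.79) was called on the scale of miRNA reads. miR-34c was higher with TMM, DESeq2 size factors, all reads or miR-21 left out, miR-181a was higher under the same scalings other than all reads, and miR-181c was lower without miR-143.

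miRNAs cut from the same transcript did not always keep together. miR-143 and miR-145 differed by 0.21 in log2 ratio, miR-191 and miR-425 by 0.20, and miR-29a and miR-29b by 0.23. In contrast miR-206 and miR-133b, both lower in SVSC, differed by 5.09, miR-1 and miR-133a by 2.40, and the members of the miR-17 cluster by up to 2.38. However, miR-133a and miR-19b, the lowest of that cluster, are counted over their hairpin copies together, which need not share 1 transcript. The value of miR-133a also rests mostly on reads outside the mature miRNA. The pairs miR-424 and miR-503, and miR-30b and miR-30d, each differed by 1.51, and miR-23b and miR-27b by 1.03. No spread between replicates is at hand to set these differences against.

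The ends of the miRNAs were compared next. The deposited tables divide a hairpin's reads into the mature miRNA, the star strand (the opposite arm) and the rest, and count mature reads that match the annotated ends exactly. Of 94 miRNAs with at least 1000 reads in both libraries, only 7 had star reads. For the others, reads of the opposite arm may be counted with the rest. The exact share of all mature reads was 38.3% in SVSC and 50.2% in IVSC. Without miR-21, whose exact share was 14.1% in SVSC and 18.8% in IVSC, it was 76.9% and 79.1%. Over 80 miRNAs with at least 1000 reads in both libraries and 1000 mature reads in both, the exact share was lower in SVSC for 42 and higher for 38, with a median difference of -0.15 percentage points.

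Single miRNAs moved more than that. The exact share of miR-26a was 75.2% (74.7 to 75.7) in SVSC and 52.3% (51.8 to 52.9) in IVSC, and that of miR-708 was 83.6% (81.3 to 85.8) and 69.6% (67.6 to 71.5). It was lower in SVSC for miR-100, at 18.0% (17.8 to 18.2) and 30.5% (30.0 to 31.0), for miR-10a, at 38.4% and 52.2%, and for miR-98, at 57.8% and 71.3%. In arm choice, the star strand held 82.5% (82.0 to 83.0) of the reads of miR-374a in SVSC and 64.1% (63.4 to 64.9) in IVSC, and 59.6% (59.1 to 60.1) and 70.6% (70.2 to 71.0) of those of miR-199a. It held 92.1% and 91.2% for miR-140, 1.92% and 0.927% for miR-27b, and 2.40% and 3.10% for miR-24. The ranges are exact binomial 95% intervals and cover counting error only.

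**Figure D4:**
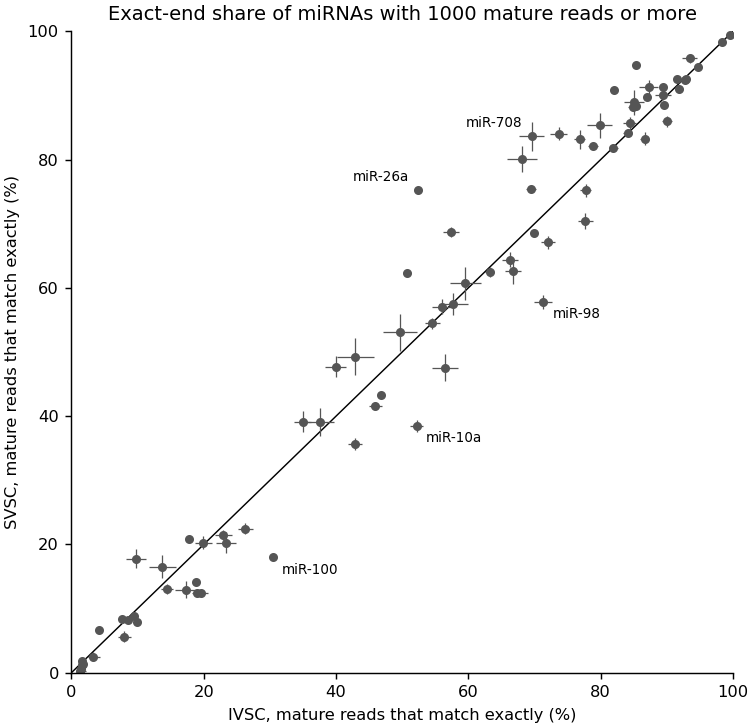
Share of the mature reads of a miRNA that match the annotated mature ends exactly, in percent, in IVSC (x axis) and SVSC (y axis), for the 80 miRNAs with at least 1000 reads; bars are exact binomial 95% intervals of 1 library each. Points lie to both sides of the line of equal shares, with miR-26a and miR-708 above it and miR-100, miR-10a and miR-98 below.

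The shares of the small RNA classes differed between origins by less than 2-fold. Of all reads as deposited, pig hairpins took 75.4% in SVSC and 70.2% in IVSC, Ensembl non-coding RNAs 15.7% and 19.3%, and Rfam miRNA families 7.41% and 9.01%. tRNA entries took 0.819% and 0.708%, piRNA entries 0.502% and 0.503%, and rRNA entries 0.135% and 0.153%. C/D box small nucleolar RNAs, which guide methylation of ribosomal RNA, took 0.0675% and 0.0527%, the widest class ratio upwards at 1.28 (1.25 to 1.31), and Y RNAs, with 751 and 894 reads, the widest downwards at 0.705 (0.639 to 0.778).

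Of 246 features other than hairpins at 10 RPM or more in 1 of the 2 libraries, 32 were higher in SVSC (13%) and 16 were lower (6.5%), with a median log2 ratio of 0.05. The balance again depends on the scaling: 24 were higher and 23 lower when scaled to miRNA reads, and 50 and 12 when scaled to the reads of each resource. Of 16 C/D box families 2 were higher and 1, SNORD113, was lower. SNORD78, cut from an intron of the growth arrest gene GAS5, had 1030 reads in SVSC and 126 in IVSC, 6.86-fold higher (5.70 to 8.32). SNORD12, from introns of the non-coding gene ZFAS1, had 2313 and 647 reads, 3.00-fold higher (2.75 to 3.28). SNORD52, SNORD28 and SNORD99, with more than 1000 reads in both libraries, had ratios of 1.71, 1.16 and 1.15 and were not called.

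Rfam miRNA families, which sum entries apart from the pig hairpins, repeated part of the miRNA differences, and some of their reads may be those of the hairpins. The let-7 family had 74052 reads in SVSC and 19811 in IVSC, 3.14-fold higher (3.09 to 3.19). The mir-10 family, which holds miR-10a and miR-10b as well as miR-100 and its relatives, had 8957 and 2155 reads, 3.49-fold higher (3.33 to 3.66). Its members did not all go that way among the pig hairpins. On the scale of miRNA reads miR-10b was lower there, at a log2 ratio of -1.36. miR-10a (-0.33), miR-99a (-0.68) and miR-99b (0.64) were not called. The mir-148 family had 811 and 1859 reads, lower at a ratio of 0.366 (0.337 to 0.398). The family of the skin miRNA mir-203 had 847 and 285 reads, 2.49-fold higher (2.18 to 2.86). mir-143 had 1756280 and 1876707 reads and was not called.

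Of the piRNA entries, 11 of 67 were higher in SVSC and 4 were lower, where 13% and 6.5% of the features other than hairpins were. PIR64428 had 10275 reads in SVSC and 2282 in IVSC, 3.78-fold higher (3.61 to 3.96), and PIR82944 had 4227 and 13331, 3.76-fold lower (3.63 to 3.89). PIR54467 was 2.41-fold lower and PIR88654 2.19-fold. Of 129 Ensembl non-coding RNAs 14 were higher and 8 were lower, beside the same 13% and 6.5%. Transcript ENSSSCT00000020593 had 686 reads in SVSC and 9754 in IVSC, 16.9-fold lower (15.7 to 18.3), the lowest ratio among features at 100 RPM or more, and ENSSSCT00000021207 was 2.74-fold lower. ENSSSCT00000021744 had 64379 and 20291 reads, 2.66-fold higher (2.62 to 2.71), and ENSSSCT00000019753 was 2.39-fold higher. The files pair these transcripts with no gene name.

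The induced libraries, SVSC MDI with 2573249 miRNA reads and IVSC MDI with 14810112, show which differences between origins were also seen after induction. They share no library with the undifferentiated pair but come from the same origins. There 26 of 147 miRNAs were higher (17.7%) and 15 lower (10.2%) in SVSC MDI than in IVSC MDI. Of the 11 miRNAs higher before induction, 2 were also higher after it, 8 were not called and 1 was not compared. Of the 31 lower before, 8 were also lower after, 15 were not called, 3 were not compared and 5 were higher. This tally depends on the scaling, since scaling to all reads moved the log2 ratios by 0.18 before induction and by -0.52 after it. On that scale, of 14 higher before, 1 was also higher after and 2 were lower, and of 28 lower before, 12 were also lower after and 1 was higher.

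The 2 higher in both pairs were miR-129, with 1350 CPM against 116 before and 567 against 110 after, and miR-27b, with 2773 against 1074 before and 3830 against 1894 after. The 8 lower in both were miR-206, 5 of the DLK1-DIO3 locus (miR-411, miR-127, miR-381, miR-369 and miR-299), miR-708 and miR-146b. miR-206 had 4 reads in SVSC MDI and 2068 in IVSC MDI, 89.8-fold lower, and miR-127 had 92 and 3011, 5.69-fold lower. miR-100, let-7a and miR-103 were not called after induction, at log2 ratios of -0.26, 0.47 and -0.28, nor were miR-148a (0.50) and miR-19b (-0.20). miR-133b, at -5.68 before, had 42 and 244 reads after, a log2 ratio of -0.01.

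Over the 140 miRNAs compared in both pairs, the Pearson r of the log2 ratios before and after was 0.526, the Spearman rho was 0.184, and the sign was shared by 55%. Without miR-206 the Pearson r was 0.336. This is a description across miRNAs, which share libraries and scaling and are not independent replicates. Whether the difference between origins itself changed with induction could not be tested with 1 library per group.

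**Figure D5:**
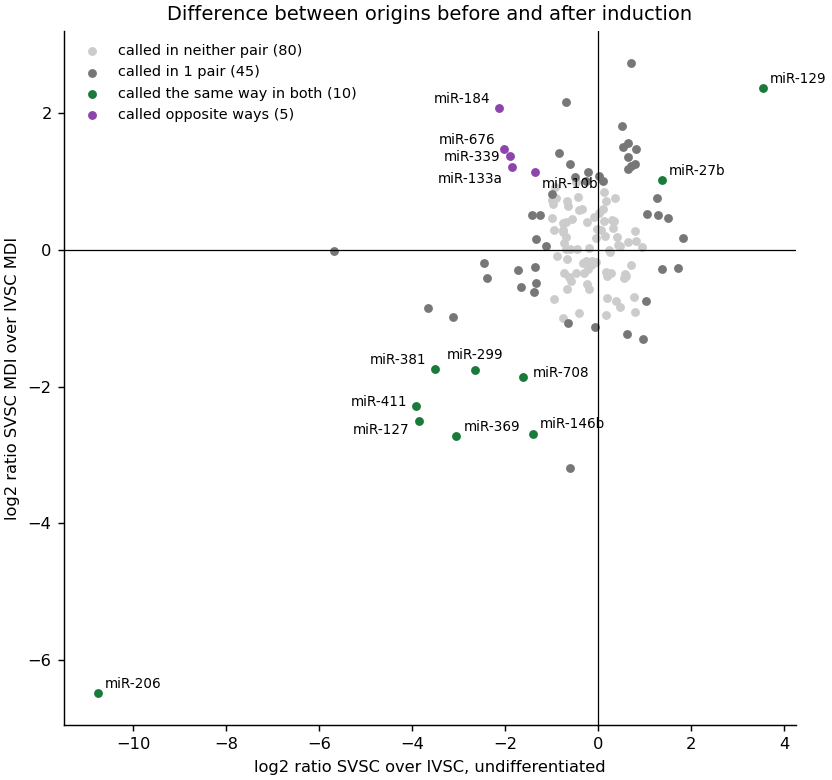
log2 ratio of CPM between origins before induction (x axis, SVSC over IVSC) and after it (y axis, SVSC MDI over IVSC MDI) for 140 miRNAs, 1 library per group. The 10 miRNAs called the same way in both pairs (green) include miR-206 and 5 of the DLK1-DIO3 locus at lower left; the 5 called opposite ways (purple) lie at upper left. Values and calls are scaled to miRNA reads; scaled to all reads, 13 were called the same way and 3 opposite ways.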

How the data were processed

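Small RNA was sequenced in 4 libraries of pig cells, 1 per group, from about 10 µg of total RNA with 12 cycles of PCR and 36 sequencing cycles, per the labels' protocols. The values deposited by the authors are read counts per feature, of pig hairpins, Ensembl non-coding RNAs (Sscrofa9.61), piRNAs and Rfam, divided into exact mature, mature, star and other reads and their total, per the file headers. The sources used here name no aligner, mismatch limit or trimming tool. Some Rfam tRNA entries of the SVSC file hold blank values, 3 entries without a resource name and 1 unnamed total line of the SVSC MDI file were left out, and the total of such a tRNA entry was taken from its mature column.

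A miRNA was counted as all reads of its hairpin, copies once (the largest copy plus uniquely matching mature reads of the others), and scaled to the miRNA reads of the library. Other features were scaled to all reads (RPM), 25725720 in SVSC and 21590587 in IVSC, summed over the entries of an Rfam family. These totals count some reads more than once. Ratios have exact 95% Clopper-Pearson counting intervals, given the summed reads of the pair (SciPy 1.17.1, pandas 2.3.3, Python 3.11.15). A count of 0 was set to 3 reads. Reads copied by PCR and carrying no molecular identifier need not stand for separate molecules, so intervals and floors cover counting error only. Alternatives were scaling to all reads, TMM (edgeR 4.0.16), size factors (DESeq2 1.42.0, R 4.3.3), totals without miR-21 or miR-143, mature or exact reads only, summed copies, and other minima and folds. No count model was fitted. The interval and calls were tested on simulated counts with counting error only. That test cannot show how calls behave under differences between animals or preparations.

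Named are the 10 largest ratios in each direction at 100 CPM or more, called list members and all members of short lists, the 10 most abundant miRNAs, the 5 largest ratios of other features at 100 RPM, and the 5 largest differences in star and exact share. Other names were chosen after their values were seen. Members and lists were chosen with earlier results of these data known.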

Additional observations from a re-analysis of the deposited data

Results flagged for a closer look

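With 1 library per group, a difference between origins that was called one way before induction and the other way after it rests on single libraries, and the change itself was not tested. Scaled to miRNA reads, this was the case for 5 miRNAs, all lower in SVSC than in IVSC before induction and higher in SVSC MDI than in IVSC MDI. Scaled to all reads, of these 5 miR-184 alone was called opposite ways (log2 ratios of -1.94 and 1.56), and the log2 ratios of the other 4 after induction were 0.62 to 0.95 and were not called. On that scale miR-30d (1.20 and -1.26) and miR-34c (1.15 and -1.82) were higher before and lower after. miR-10b, a miRNA of a HOX cluster, had a log2 ratio of -1.36 before and 1.14 after, with 1546 and 3980 CPM in SVSC and IVSC and 15493 and 7023 CPM in SVSC MDI and IVSC MDI. miR-339 had log2 ratios of -1.91 and 1.38. The muscle miRNA miR-133a had -1.85 and 1.22, mostly from reads outside the mature miRNA. miR-184 had -2.13 and 2.08 on 74, 239, 52 and 71 reads in SVSC, IVSC, SVSC MDI and IVSC MDI. miR-676 had -2.03 and 1.47 on 127, 382, 133 and 276 reads, of which only 4, 9, 1 and 2 lay on the mature miRNA.

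Among the other features named, 3 were called opposite ways on the scale of all reads. Ensembl transcript ENSSSCT00000020593 had a log2 ratio of -4.08 before and 1.37 after induction. ENSSSCT00000019753 had 1.26 and -2.46. The Rfam family mir-1 had 1.13 and -1.04, and the pig hairpin of miR-1 had log2 ratios of 0.55 and -0.42 on the scale of miRNA reads.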

How the results depend on the processing

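No paired analysis was possible because each group has 1 library, and for the same reason no replicate could be left out. Against 11 higher and 31 lower miRNAs, higher calls came to 23 with TMM, 23 with DESeq2 size factors, 24 without miR-21, 18 on exact mature reads, 7 on mature reads, 6 at a 100 CPM minimum and 1 at 4-fold, and lower calls to 46 without miR-143, 44 at a 1 CPM minimum, 16 at a 100 CPM minimum and 16 at 4-fold. All 11 higher miRNAs were among those called with TMM, DESeq2 size factors and without miR-21. On mature reads 7 of the 11 higher and 22 of the 31 lower calls were made as well, and none was reversed. Of the other features, 50 were higher when scaled to the reads of their resource, and 7 were higher and 6 lower at a minimum of 100 RPM. With hairpin copies and near equal Ensembl transcripts counted once, the ratio of shares, SVSC over IVSC, was 1.08 for hairpins, 0.768 for Ensembl non-coding RNAs, 0.780 for Rfam miRNA families, 1.10 for tRNA, 0.947 for piRNA entries, 0.836 for rRNA, 1.22 for C/D box and 0.782 for H/ACA box small nucleolar RNAs, and 0.712 for other Rfam entries. Of the 16 called miRNAs with the largest ratios at 100 CPM or more, none changed direction. miR-30d was short of 2-fold without miR-143 and on mature reads, and miR-381 on mature and exact reads and miR-299 on exact reads lay below the minimum level. Depth limits the rarest miRNAs, with under 100 reads in SVSC for 6 of the 10 DLK1-DIO3 members compared.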
